A study of Mus musculus with 2 samples.

Results

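The 9 genes described here encode 3 steroid hormone receptors (Esr1, Pgr and Nr3c1), 4 nuclear receptor coactivators (Ncoa1, Ncoa2, Ncoa3 and Ncoa6) and 2 immunophilins that ride on receptor complexes (Fkbp4 and Fkbp5). They were taken by symbol from the 20634 genes listed in both deposited tables, and all 9 were present. Whole uteri were collected on gestational day 4, counting the plug as day 1, from females aged 6 to 8 weeks that had been mated with fertile males. The tables hold 1 library from uteri labelled Mettl3 ed/ed and 1 from uteri labelled Mettl3 f/f. Values are in FPKM, in which fragment numbers are scaled for transcript length and library depth. The labels do not say what ed/ed or f/f stands for, what drives any recombination, or how many animals each library holds. Replicates are lacking, each genotype having 1 library, so every comparison is between these 2 libraries and no p-value was made.

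A steroid receptor waits for its hormone in a complex built on the chaperone HSP90, in which an immunophilin such as the product of Fkbp4 or Fkbp5 is docked. After hormone binding the receptor sits on DNA and recruits coactivators of the NCOA family, which bring in histone-modifying enzymes. In the early pregnant mouse uterus, progesterone acting through Pgr prepares the stroma for decidualization, and estrogen acting through Esr1 opens the window in which an embryo can implant. Mettl3, the gene named in both genotype labels, encodes the enzyme that adds the m6A mark to messenger RNA.

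As deposited, all 9 genes had a lower FPKM in the ed/ed library than in the f/f library, by very different amounts, and Fkbp4 and Ncoa6 turned to the higher side under each of 4 other scalings. Pgr and Fkbp5 stood at about the same place, at 0.501 and 0.496 times their f/f values. Ncoa2, Nr3c1 and Ncoa1 lay between 0.603 and 0.620 times, and Esr1 and Ncoa3 at 0.747 and 0.744 times. Ncoa6 and Fkbp4 were nearly level in both libraries, at 0.954 and 0.974 times. Most genes of the uterus also had lower values in ed/ed, so these numbers are read below against that background.

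Mettl3, the gene named in the genotype, was at 10.2 FPKM in the library labelled ed/ed and 10.6 FPKM in the library labelled f/f, a ratio of 0.963 (95% counting interval 0.826 to 1.13). Its level did not tell the libraries apart, so all directions rest on the labels. A value summed over a whole gene can stay level where only some exons are missing, and exons were not analysed here. The steps between low values gave a depth of about 17400000 fragments for ed/ed and 18300000 for f/f. Genes that reached 1 FPKM in at least 1 library numbered 12165 and are called expressed. Over them the median log2 ratio of ed/ed over f/f was -0.26, with an SD of 0.58 across genes, and 70.4% of genes were below 0. A log2 ratio here has 1 FPKM added to the ed/ed and the f/f value before division, and a linear ratio has nothing added. The ratio also followed transcript length, with medians of -0.02 in the shortest and -0.43 in the longest of 10 equal groups of genes. Cell type markers differed too. The summed FPKM of 12 stroma markers was 648 in ed/ed and 1322 in f/f, and that of 10 endothelium markers was 78.6 in ed/ed and 190 in f/f. The sum of 12 epithelium markers was 2955 FPKM in ed/ed and 2886 in f/f, and that of 10 myometrium markers 954 in ed/ed and 585 in f/f. In whole tissue, fewer cells of a type and less RNA per cell cannot be told apart.

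By a 2-fold rule of size, 0 of the 9 genes were called lower and 0 higher, where 6.22% of expressed genes were called lower and 2.68% higher. Without the added 1 FPKM, Fkbp5 passed the rule at -1.01. At 1.5-fold, 4 of the 9 were lower (Fkbp5, Pgr, Ncoa2 and Nr3c1), against 23.4% of expressed genes. The median log2 ratio of the 9 genes was -0.57, a difference of -0.31 from the median of all expressed genes. Relative to that median, 7 genes lay below and 2, Ncoa6 and Fkbp4, lay above.

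**Figure D1:**
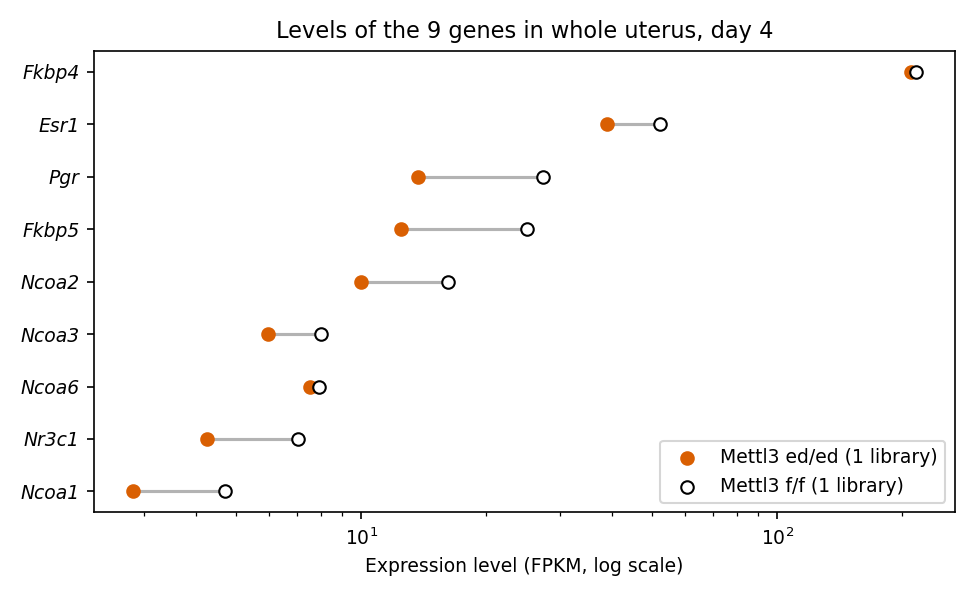
Expression level in FPKM on a log axis for the 9 genes, with the ed/ed library as filled points and the f/f library as open points, 1 library each and therefore without error bars. In these values as deposited, every filled point lies left of its open point, with the widest gap for Fkbp5 (12.4 FPKM in ed/ed and 25.1 in f/f) and nearly touching points for Fkbp4 (210 FPKM in ed/ed and 215 in f/f).

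The order of the levels was almost the same in both libraries. Fkbp4 was by far the most abundant, followed by Esr1, Pgr, Fkbp5 and Ncoa2, and Nr3c1 and Ncoa1 closed the list. The places of Ncoa6 and Ncoa3 were exchanged, with Ncoa6 ahead in ed/ed (7.54 against 5.97 FPKM for Ncoa3) and Ncoa3 ahead in f/f (8.02 against 7.91 FPKM for Ncoa6). FPKM is a level per transcript length, which allows this order, but with 1 library there is no spread against which to set the gaps between neighbours. Fkbp4 stood above 97.5% of expressed genes in ed/ed and above 97.4% in f/f. Ncoa1 stood above 20.6% in ed/ed and 26.2% in f/f. Fkbp5 differed most in rank, standing above 59.8% of expressed genes in ed/ed and above 74.6% in f/f, with Pgr close to it at 62.5% in ed/ed and 76.6% in f/f.

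Among the receptors, Pgr differed most. Esr1 (ENSMUSG00000019768, GRCm38 chromosome 10, 4611593 to 5005614, plus strand), which encodes estrogen receptor alpha, was at 39.0 FPKM in ed/ed and 52.2 FPKM in f/f. These values rest on an estimated 4117 fragments in ed/ed and 5810 in f/f, and the linear ratio was 0.747 (95% counting interval 0.717 to 0.777). Its log2 ratio was -0.41, and 36.4% of expressed genes had a lower one. Pgr (ENSMUSG00000031870, chromosome 9, 8899833 to 8968611, plus strand), the progesterone receptor, was at 13.7 FPKM in ed/ed and 27.3 FPKM in f/f, from an estimated 1578 fragments in ed/ed and 3319 in f/f. Its linear ratio was 0.501 (counting interval 0.472 to 0.532), and its log2 ratio of -0.95 was undercut by 7.29% of expressed genes. The value was just short of the 2-fold rule, and without the pseudocount the log2 ratio was -0.997. Nr3c1 (ENSMUSG00000024431, chromosome 18, 39410545 to 39519421, minus strand), the glucocorticoid receptor, was the least abundant of the receptors at 4.25 FPKM in ed/ed and 7.03 FPKM in f/f. Its linear ratio was 0.605 (counting interval 0.538 to 0.680), its log2 ratio was -0.61, and 21.8% of expressed genes were lower. Counting intervals cover counting error only and say nothing of variation between animals.

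The balance between the receptors also differed. Within each library, Pgr was at 0.351 times the level of Esr1 in ed/ed and 0.524 times in f/f. That is a ratio of ratios of 0.671, with a counting interval of 0.624 to 0.721, which no scaling of a whole library can alter. Their transcripts are of similar length, 6889 nt for Pgr and 6339 nt for Esr1. Esr1 was at 9.16 times the level of Nr3c1 in ed/ed and 7.42 times in f/f. The summed FPKM of the 3 receptors was 56.9 in ed/ed and 86.6 in f/f.

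The 4 NCOA coactivators described here are the steroid receptor coactivator family, Ncoa1 to Ncoa3, and Ncoa6. Ncoa6 is built differently and is a subunit of complexes that methylate histone H3. Ncoa1 (ENSMUSG00000020647, chromosome 12, 4247362 to 4477182, minus strand) was at 2.83 FPKM in ed/ed and 4.70 FPKM in f/f, from an estimated 348 fragments in ed/ed and 608 in f/f. Its log2 ratio was -0.57, just inside the 1.5-fold limit, while its linear ratio was 0.603 (0.527 to 0.689). It overlaps an annotated antisense gene, 4921501I09Rik, which was not analysed here, and the sources used here do not say whether strand was recorded. Ncoa2 (ENSMUSG00000005886, chromosome 1, 13139105 to 13374083, minus strand), a coactivator that the mouse uterus needs for decidualization, was at 9.998 FPKM in ed/ed and 16.1 FPKM in f/f. Its linear ratio was 0.620 (0.579 to 0.663) and its log2 ratio -0.64, with 19.9% of expressed genes lower. Ncoa3 (ENSMUSG00000027678, chromosome 2, 165992636 to 166073242, plus strand) was at 5.97 FPKM in ed/ed and 8.02 FPKM in f/f. Its linear ratio was 0.744 (0.677 to 0.817) and its log2 ratio -0.37. It overlaps Sulf2 on the opposite strand by 154 nt, where reads of the genes could be told apart only if strand was recorded, and Sulf2 was at 6.14 FPKM in ed/ed and 4.77 FPKM in f/f.

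Ncoa6 behaved unlike Ncoa1, Ncoa2 and Ncoa3. Ncoa6 (ENSMUSG00000038369, chromosome 2, 155390656 to 155473894, minus strand), which in mouse uterus restrains estrogen receptor alpha around implantation, was at 7.54 FPKM in ed/ed and 7.91 FPKM in f/f, from an estimated 897 fragments in ed/ed and 990 in f/f. Its linear ratio was 0.954 (counting interval 0.871 to 1.05, which spans 1), and 66.1% of expressed genes had a lower log2 ratio. Set against Ncoa2 within the same library, Ncoa6 stood at 0.755 times in ed/ed and 0.490 times in f/f, a ratio of ratios of 1.54 with a counting interval of 1.38 to 1.72. Within the steroid receptor coactivator family the proportions were much closer. Ncoa2 made up 53.2% of the summed FPKM of Ncoa1, Ncoa2 and Ncoa3 in ed/ed and 55.9% in f/f, Ncoa3 31.8% in ed/ed and 27.8% in f/f, and Ncoa1 15.1% in ed/ed and 16.3% in f/f. The level of Ncoa2 over that of Ncoa1 was 3.53 in ed/ed and 3.43 in f/f, a ratio of ratios of 1.03 (0.887 to 1.19). That of Ncoa2 over Ncoa3 was 1.68 in ed/ed and 2.01 in f/f, a ratio of ratios of 0.833 (0.743 to 0.934). The sum of the family was 18.8 FPKM in ed/ed and 28.8 FPKM in f/f.

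**Figure D2:**
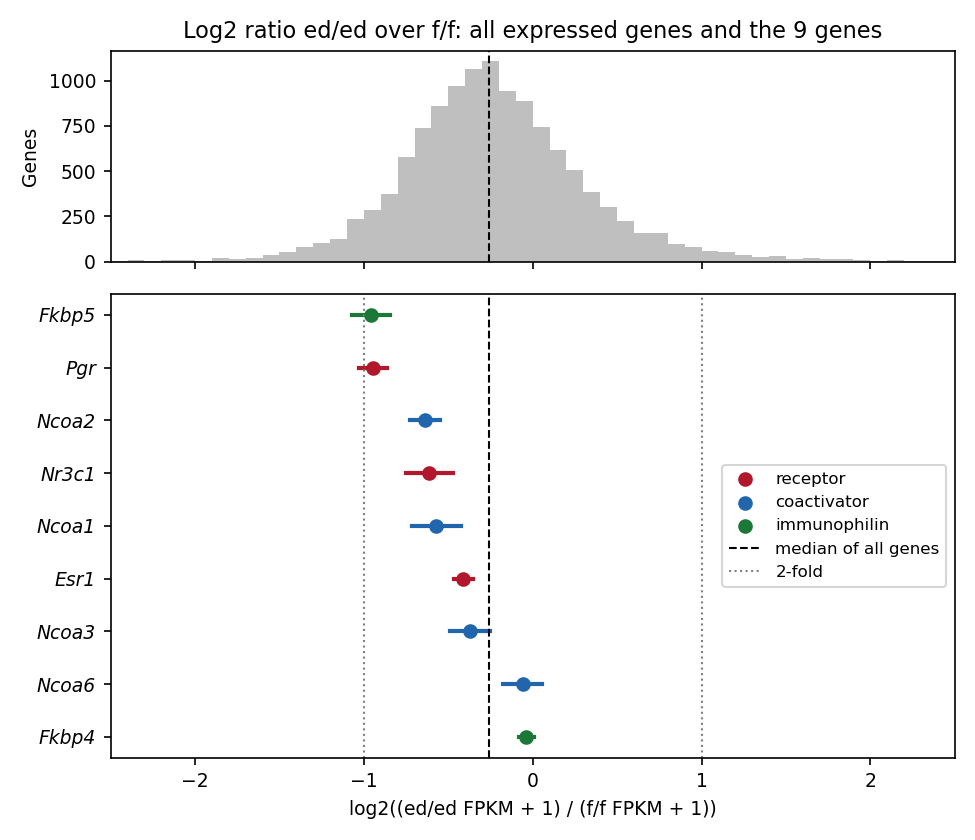
The upper panel counts all 12165 expressed genes by log2 ratio of ed/ed over f/f, and the lower panel places the 9 genes on the same axis with bars for the 95% counting interval of estimated fragments. The 9 points run from -0.96 for Fkbp5 to -0.04 for Fkbp4, the dashed line marks the median of all genes at -0.26, and dotted lines mark 2-fold.

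The immunophilins differed from each other more than the receptors or the coactivators did. Fkbp4 (ENSMUSG00000030357, chromosome 6, 128429735 to 128438677, minus strand) encodes the cochaperone that keeps the progesterone receptor ready for hormone, and mice lacking it show implantation failure. It was at 210 FPKM in ed/ed and 215 FPKM in f/f, from an estimated 7152 fragments in ed/ed and 7736 in f/f, and its linear ratio was 0.974 (counting interval 0.943 to 1.01). Its log2 ratio of -0.04 stood above that of 67.7% of expressed genes. Fkbp5 (ENSMUSG00000024222, chromosome 17, 28399094 to 28517527, minus strand) encodes the related cochaperone that lowers hormone binding of the glucocorticoid receptor and is itself induced by glucocorticoids and progestins. It was at 12.4 FPKM in ed/ed and 25.1 FPKM in f/f, from an estimated 778 fragments in ed/ed and 1655 in f/f. Its linear ratio was 0.496 (counting interval 0.454 to 0.540), and its log2 ratio of -0.96 was undercut by 7.09% of expressed genes. Fkbp4 was therefore at 16.9 times the level of Fkbp5 in ed/ed and 8.57 times in f/f, a ratio of ratios of 1.97 (1.79 to 2.15).

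Set against the receptor it serves, Fkbp4 was at 15.3 times the level of Pgr in ed/ed and 7.87 times in f/f, a ratio of ratios of 1.94 (1.82 to 2.08). Against Nr3c1 it was at 49.3 times in ed/ed and 30.6 times in f/f. Fkbp5 and Pgr kept nearly the same proportion, 0.908 in ed/ed and 0.918 in f/f, with a ratio of ratios of 0.989 (0.891 to 1.10). Because the 2 libraries give 1 ratio per gene, this shared value describes these libraries and is no test of a common course.

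Pgr and Fkbp5, with nearly equal ratios, and Fkbp4, the most abundant of the 9 genes, are shown with the promoter windows listed by RefSeq, which run from 250 bases before to 50 bases after the annotated start on GRCm38.p6. The windows are Pgr chr9:8899583-8899882 on the plus strand, Fkbp5 chr17:28486100-28486399 on the minus strand and Fkbp4 chr6:128438607-128438906 on the minus strand, and each is written 5′ to 3′ along its gene. Capitals mark matches on either strand to AGAACA (core of the glucocorticoid and progesterone response element), TGACC (core of the estrogen response element), GAANNTTC (heat shock element unit) and CCAAT. No match to another of these motifs overlaps a capitalised one.
Pgr: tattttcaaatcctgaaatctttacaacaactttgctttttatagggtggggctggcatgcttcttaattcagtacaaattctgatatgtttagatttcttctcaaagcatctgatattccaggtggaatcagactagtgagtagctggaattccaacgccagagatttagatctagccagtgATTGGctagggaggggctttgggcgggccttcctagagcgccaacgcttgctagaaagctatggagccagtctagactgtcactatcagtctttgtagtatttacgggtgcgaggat
Fkbp5: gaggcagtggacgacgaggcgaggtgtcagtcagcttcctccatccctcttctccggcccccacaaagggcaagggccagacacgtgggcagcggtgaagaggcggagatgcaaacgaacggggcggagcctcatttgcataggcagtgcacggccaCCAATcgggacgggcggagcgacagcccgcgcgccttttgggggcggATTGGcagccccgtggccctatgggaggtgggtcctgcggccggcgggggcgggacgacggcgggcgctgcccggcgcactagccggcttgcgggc
Fkbp4: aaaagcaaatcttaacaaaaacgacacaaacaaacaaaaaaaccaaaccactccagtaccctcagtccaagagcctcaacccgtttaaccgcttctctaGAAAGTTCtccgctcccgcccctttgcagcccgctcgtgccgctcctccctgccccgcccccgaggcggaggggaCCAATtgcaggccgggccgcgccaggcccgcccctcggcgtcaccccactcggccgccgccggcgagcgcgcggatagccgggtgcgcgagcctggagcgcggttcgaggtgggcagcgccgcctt
Pgr holds CCAAT on the reverse strand at -67 to -63 from the start. Fkbp5 holds CCAAT at -93 to -89 and, reversed, at -46 to -42. Fkbp4 holds the heat shock element unit at -151 to -144 and CCAAT at -76 to -72. None of these 3 windows holds AGAACA or TGACC. The Fkbp5 window lies inside the annotated span of its gene, which runs on upstream to 28517527. Of 32851 RefSeq promoter windows of the same length, 37.4% hold CCAAT, 7.86% GAANNTTC, 40.5% TGACC and 19.0% AGAACA, and elements outside these windows were not searched. The windows differ in base composition, with 43.7% GC and 6 CpG dinucleotides for Pgr, 70.7% and 32 for Fkbp5, and 65.3% and 33 for Fkbp4, where the median of all windows is 52.7% and 7. A match is a description of letters and not of binding.

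Since Mettl3 encodes the m6A writer, the 9 transcripts were also searched for GGACT, a common form of the sequence that this enzyme marks. It occurs in 92.2% of the longest coding transcripts of expressed genes, at a median of 1.05 per kilobase. The 9 genes hold 1 (Fkbp4) to 9 (Ncoa1) copies, and 8 of the 9 are below that median density, Ncoa1 with 1.23 per kilobase being the exception. Pgr has 5 copies (0.726 per kilobase), Fkbp5 3 (0.778) and Fkbp4 1 (0.451). The copy nearest to the stop codon in each of these 3 transcripts is shown with 10 bases on either side, GGACT in capitals, from transcripts of GENCODE M21 on GRCm38.
Pgr: tcctttggaaGGACTgaggagtcaa
Fkbp5: ctccaactcaGGACTgaacagtgtt
Fkbp4: cgcagaatacGGACTcggggtgaag
These lie 300 nt before the stop codon in Pgr, 71 nt after it in Fkbp5 and 911 nt before it in Fkbp4. Over 12158 genes the density of GGACT and the log2 ratio were nearly unrelated (Spearman's rho 0.04, across genes of the same 2 libraries). Methylation of RNA was not measured in these data.

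Most of the 9 genes have long transcripts, and length went weakly with the ratio over expressed genes (Spearman's rho -0.22). Over the 9 genes alone rho was -0.07. The longest coding transcripts run from 2217 nt (Fkbp4) to 8171 nt (Ncoa2), and 8 of the 9 exceed the median of 3089 nt over expressed genes. Ncoa1, Ncoa2, Ncoa3, Ncoa6 and Pgr fall in the longest of the 10 length groups, whose median log2 ratio was -0.43, and Esr1 and Nr3c1 in the next, with a median of -0.37. The group of Fkbp5 had a median of -0.30 and that of Fkbp4 -0.24. After a lowess trend of the log2 ratio on length was removed, which also takes out the offset of all genes, Fkbp5 was at -0.67 and Pgr at -0.55. Nr3c1 and Ncoa2 were then both at -0.22 and Ncoa1 at -0.17. Esr1 (-0.03) and Ncoa3 (0.04) were at the level of genes of their length, and Fkbp4 (0.16) and Ncoa6 (0.34) above it. On that scale 0 of the 9 were 2-fold lower, against 2.85% of genes, and 0 were 2-fold higher, against 4.32%. At 1.5-fold, 1 of the 9 was lower, Fkbp5, against 10.3% of genes. The median of the 9 genes was then -0.17, and 6 were below 0. How far length as such sets the ratios of single genes was not tested.

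**Figure D3:**
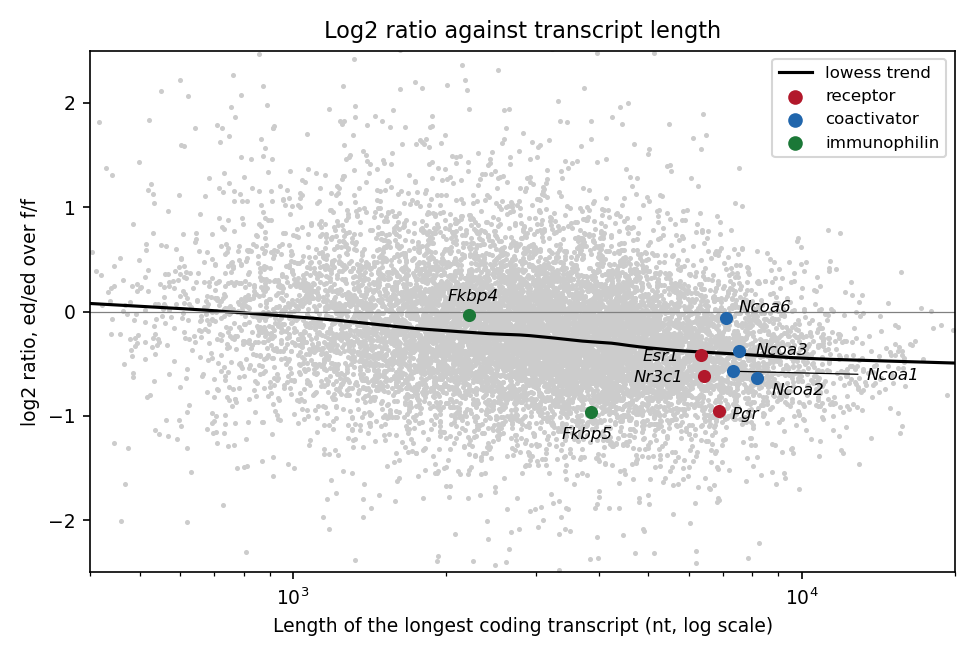
Log2 ratio of ed/ed over f/f against the length of the longest coding transcript in nt (log axis) for expressed genes in grey and the 9 genes in colour by role, with the lowess trend as a line; genes beyond the axes are not drawn. Fkbp5 and Pgr lie well below the line (length-corrected -0.67 and -0.55), Esr1 and Ncoa3 on it (-0.03 and 0.04) and Ncoa6 above it (0.34).

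The scaling of the libraries decided the sign for the genes that were nearly level and for no other. Setting the libraries to a common sum, median ratio, upper quartile or set of reference genes multiplied the ed/ed values by factors of 0.09 to 0.33 on the log2 scale, which shift low genes by less because of the added 1 FPKM. Under these 4 scalings Fkbp4 ran from 0.05 to 0.29 and Ncoa6 from 0.02 to 0.24, so both were on the higher side in ed/ed. Pgr ran from -0.87 to -0.64, Fkbp5 from -0.88 to -0.65, Ncoa2 from -0.56 to -0.34, Nr3c1 from -0.54 to -0.34 and Ncoa1 from -0.51 to -0.32. Esr1 ran from -0.33 to -0.09 and Ncoa3 from -0.30 to -0.09.

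**Figure D4:**
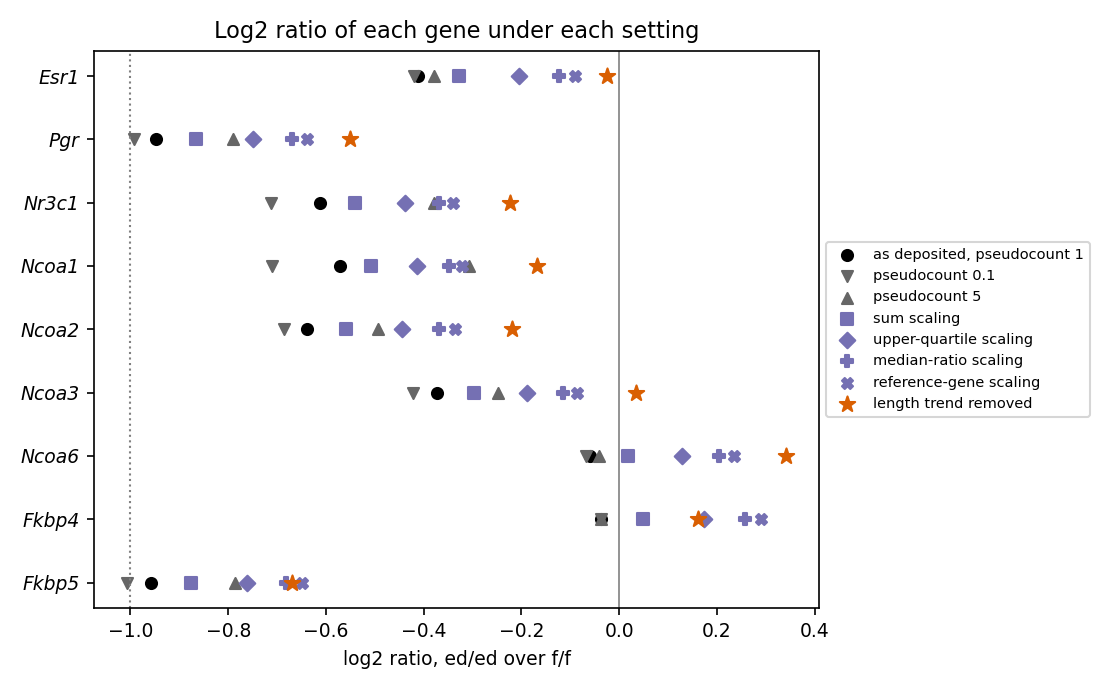
Log2 ratio of ed/ed over f/f of each of the 9 genes as deposited, with a smaller and a larger pseudocount, under 4 scalings and with the length trend removed. Fkbp4 and Ncoa6 cross 0 under the scalings, Ncoa3 crosses it with length removed (0.04), and Fkbp5 passes the dotted line of 2-fold with a pseudocount of 0.1 (-1.01).

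Markers of the uterine cell types had different ratios, and their values stand beside those of the 9 genes here. All 12 stroma markers, which include collagens and Pdgfra, had lower FPKM in ed/ed, with a median log2 ratio of -0.96 and a ratio of their sums of 0.490, and Pgr and Fkbp5 had nearly the same ratio as that sum. Pgr equalled 2.11% of the summed stroma markers in ed/ed and 2.07% in f/f, and Fkbp5 1.92% in ed/ed and 1.897% in f/f. Esr1 equalled 6.02% in ed/ed and 3.95% in f/f, and Fkbp4 32.4% in ed/ed and 16.3% in f/f. Against the 12 epithelium markers Fkbp4 and Ncoa6 came closest to equal proportions, Fkbp4 at 7.09% of their sum in ed/ed and 7.45% in f/f and Ncoa6 at 0.255% in ed/ed and 0.274% in f/f, while Pgr was at 0.463% in ed/ed and 0.947% in f/f. Of those epithelium markers, 0 passed 2-fold and 8 were above 0. Of 10 myometrium markers, 9 were above 0 and 1 was called 2-fold higher. Of 9 endothelium markers all were below 0 and 6 were called 2-fold lower, with a median of -1.20. Of the 12 stroma markers 5 were called 2-fold lower. Over all expressed genes 6.22% were called lower and 2.68% higher, and 70.4% were below 0. With the length trend removed, 2 epithelium and 3 myometrium markers were 2-fold higher, against 4.32% of genes. On that scale 2 stroma and 2 endothelium markers were 2-fold lower, against 2.85% of genes. Of 7 glandular markers, 3 were under 1 FPKM in both libraries. Foxa2 (4.396 FPKM in ed/ed and 0.924 in f/f) and Sox9 (2.84 in ed/ed and 0.387 in f/f) passed the filter through the ed/ed library alone. Spink1 was at 35.96 FPKM in ed/ed and 15.7 in f/f, and Cxcl15 at 5.28 in ed/ed and 2.596 in f/f. Of 8 expressed immune markers 2 were called higher (25.0%, against 2.68% of all expressed genes) and 1 lower (12.5%, against 6.22%). Of 6 embryo markers 5 were listed at 0 in both libraries, as were 4 of 8 markers of ovary, oviduct and fat. Of the others, the oviduct marker Ovgp1 was at 60.8 FPKM in ed/ed and 41.0 in f/f, Star, of steroid-making cells, at 2.29 in ed/ed and 0.667 in f/f, and the ovarian Inha at 1.17 in ed/ed and 2.28 in f/f, and their part in the ratios was not tested. All listed markers of stroma, epithelium and myometrium were expressed in both libraries, as the label of whole uterus has it. Which cells held the receptors was not measured, and the part of tissue makeup in these ratios was not tested.

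The rest of the receptor machinery was described by 8 lists without the 9 genes, holding 166 distinct genes, of which 6 are on more than 1 list. Fkbp4, Pgr and Fkbp5 were for that reason taken off the lists of progesterone, estrogen and glucocorticoid receptor targets. The HSP90 machinery that loads receptors was present in full and stayed within 2-fold. Of its 22 genes 0 were called in either direction, where 6.22% of all expressed genes were called lower and 2.68% higher. Of the 22, 16 were below 0, where 70.4% of all expressed genes were. The median log2 ratio of the 22 was -0.25, beside -0.26 for all genes. That median changed sign under 2 of the 4 scalings. The most abundant were Hsp90ab1, the constitutive HSP90, at 723 FPKM in ed/ed and 949 in f/f, and Hspa8, the constitutive HSP70, at 547 in ed/ed and 875 in f/f. The lowest ratios were those of Cdc37, a cochaperone for kinases, at 62.0 FPKM in ed/ed and 107 in f/f (-0.77), and St13, which links HSP70 to HSP90, at 71.3 in ed/ed and 122 in f/f (-0.77). Fkbpl, an immunophilin-like protein, had the highest at 5.57 FPKM in ed/ed and 3.45 in f/f (0.56).

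The other expressed FK506-binding proteins had higher log2 ratios than Fkbp5, except that without the added 1 FPKM the scarce Fkbp1b was lower (linear ratio 0.385, against 0.496 for Fkbp5). Of 13 listed, 12 were expressed and 0 were called, where 6.22% of all expressed genes were called lower and 2.68% higher. The median log2 ratio of the 12 was -0.37. Fkbp1a, the cytosolic receptor of the drug FK506, was at 204 FPKM in ed/ed and 247 in f/f (-0.28), and the mitochondrial anchored Fkbp8 at 96.7 in ed/ed and 121 in f/f (-0.33). The lowest were Fkbp10 at 13.6 FPKM in ed/ed and 23.4 in f/f (-0.74), Fkbp9 at 23.4 in ed/ed and 39.4 in f/f (-0.73) and Fkbp14 at 3.62 in ed/ed and 6.52 in f/f (-0.70), all residents of the endoplasmic reticulum, where Fkbp10 and Fkbp14 help collagen to fold. Fkbp1b, at 0.605 FPKM in ed/ed and 1.57 in f/f (-0.68), was close to the filter.

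Coactivators and corepressors outside the 9 genes were also within 2-fold on the scale with 1 FPKM added. Without it, Smarca2 (linear ratio 0.499) and the scarce Nr0b1 (0.162) were past 2-fold among the expressed ones. Of 26 other coactivators 24 were expressed and 0 called, where 6.22% of all expressed genes were called lower and 2.68% higher. The median log2 ratio of the 24 was -0.32. Smarca2, an ATPase of the SWI/SNF remodelling complex, was lowest at 55.7 FPKM in ed/ed and 112 in f/f (-0.99), close to the limit. Ncoa4, which is better known for sending ferritin to autophagy, was at 22.7 FPKM in ed/ed and 43.6 in f/f (-0.91). Trim24, a receptor-binding chromatin reader, was at 21.8 FPKM in ed/ed and 34.9 in f/f (-0.66), and Trrap, a scaffold of acetyltransferase complexes, at 6.26 in ed/ed and 10.3 in f/f (-0.64). The RNA helicases Ddx5 (257 FPKM in ed/ed and 294 in f/f) and Ddx17 (126 in ed/ed and 143 in f/f) were the most abundant, with log2 ratios of -0.19 and -0.18.

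Of 17 corepressors 16 were expressed and 0 called, where 6.22% of all expressed genes were called lower and 2.68% higher. The median log2 ratio of the 16 was -0.38. Ncor1, the scaffold that brings histone deacetylase to unliganded receptors, was at 16.4 FPKM in ed/ed and 27.4 in f/f (-0.71), and its partner Tbl1x at 15.4 in ed/ed and 25.3 in f/f (-0.68). Mta1, of the NuRD remodelling complex, was at 16.2 FPKM in ed/ed and 29.2 in f/f (-0.81), and Nr0b1, an orphan receptor that blocks others, at 0.188 in ed/ed and 1.16 in f/f (-0.86), a level near the filter. The deacetylases Hdac1 (94.8 FPKM in ed/ed and 124 in f/f) and Hdac2 (102 in ed/ed and 95.6 in f/f) were the most abundant.

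Of 33 listed nuclear and membrane receptors for steroids and related ligands, 26 were expressed. Of these, 3 were called lower (11.5%, against 6.22% of all expressed genes) and 0 higher (against 2.68%). With the length trend removed 1 was lower, against 2.85% of genes, and 2 were higher, against 4.32%. The median of the 26 was -0.32, positive under 2 of the 4 scalings. The 3 were Paqr5, a membrane progestin receptor, at 1.03 FPKM in ed/ed and 5.40 in f/f (-1.65), the orphan receptor Nr2c2 at 2.12 in ed/ed and 5.602 in f/f (-1.08) and the clock repressor Nr1d1 at 1.28 in ed/ed and 3.62 in f/f (-1.02). Nr2f2, an orphan receptor that acts in uterine stroma downstream of progesterone, was at 25.9 FPKM in ed/ed and 49.2 in f/f (-0.90). The most abundant were Pgrmc1, a membrane haem protein linked to progesterone binding, at 163 FPKM in ed/ed and 160 in f/f (0.02), and the orphan receptor Nr2f6 at 76.5 in ed/ed and 65.2 in f/f (0.23). Esr2, the other estrogen receptor, was near absent, at 0 FPKM in ed/ed and 0.0198 in f/f.

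**Figure D5:**
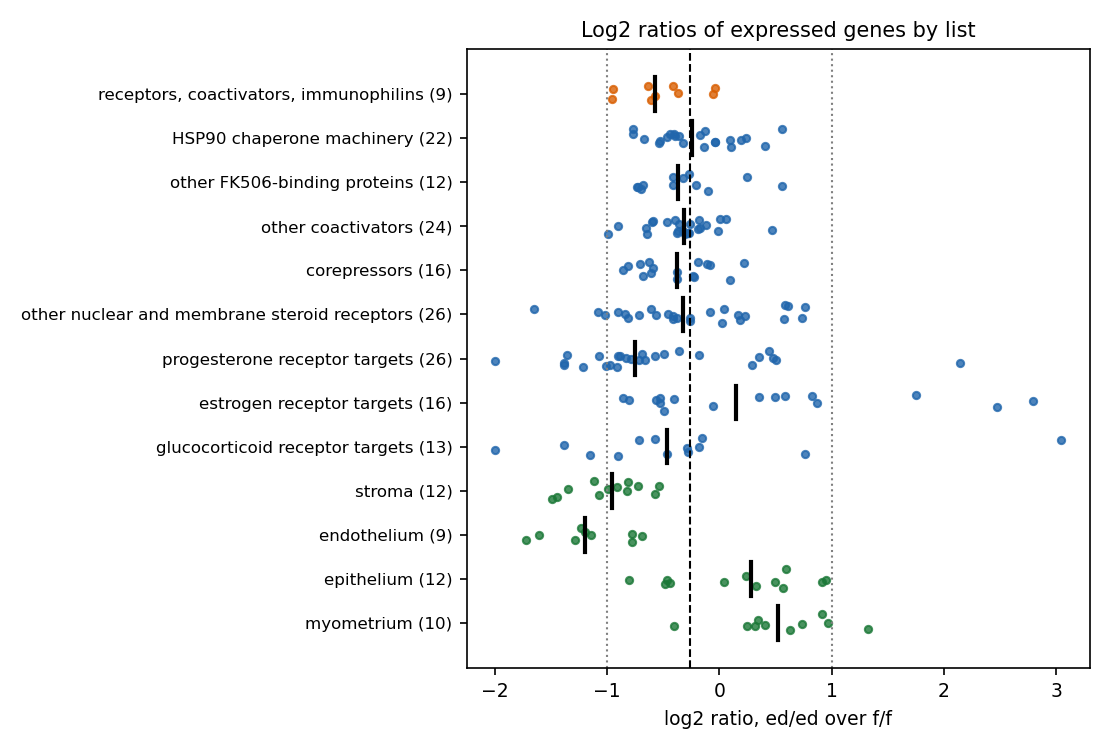
Log2 ratio of ed/ed over f/f for expressed genes of each list, 1 point per gene with the number of genes in brackets and the list median as a black bar; the 9 genes are orange, pathway lists blue and cell type markers green. The dashed line is the median of all genes (-0.26) and dotted lines mark 2-fold. The list medians of progesterone receptor targets (-0.75) and estrogen receptor targets (0.15) lie on opposite sides of the dashed line. Single genes of both lists lie on either side, with 7 of 26 progesterone targets above it and 7 of 16 estrogen targets below it.

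Most expressed targets of the progesterone and glucocorticoid receptors were lower in ed/ed, as were 70.4% of all expressed genes. Those of the estrogen receptor were divided. Of 27 progesterone receptor targets 26 were expressed, 7 were called lower (26.9%, against 6.22% of all expressed genes) and 1 higher (3.85%, against 2.68%). Their median log2 ratio was -0.75, a difference of -0.49 from that of all genes. Of the 26, 20 were below 0 and 6 above, where 70.4% of all expressed genes were below 0. After removal of the length trend 5 were 2-fold lower, against 2.85% of genes, and 1 higher, against 4.32%. The median ran from -0.85 to -0.50 over the processing settings. The lowest were Sgk1, a kinase that acts on ion transport, at 17.6 FPKM in ed/ed and 73.2 in f/f (-1.998), and the decoy receptor Il13ra2 at 5.47 in ed/ed and 15.9 in f/f (-1.39). Next came the zinc finger gene Zbtb16 at 4.22 in ed/ed and 12.6 in f/f (-1.39) and Hdc, the enzyme that makes histamine, at 254 in ed/ed and 653 in f/f (-1.36). Cyp26a1, which degrades retinoic acid and is a progesterone-induced gene of the luminal epithelium, was the 1 gene called higher, at 22.1 FPKM in ed/ed and 4.22 in f/f (2.14). Sox17, an epithelial transcription factor, was the second most abundant by the mean of both libraries, at 283 FPKM in ed/ed and 204 in f/f (0.47). Hand2 and Hoxa11 are on this list and among the stroma markers, and Hand2, which restrains epithelial growth from the stroma, was at 18.8 FPKM in ed/ed and 40.6 in f/f (-1.08). The stroma markers had a median of -0.96, and their part in the progesterone list was not tested.

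Of 20 estrogen receptor targets 16 were expressed, 3 were called higher (18.75%, against 2.68% of all expressed genes) and 0 lower (against 6.22%). Of the 16, 8 were above 0 and 8 below, where 70.4% of all expressed genes were below 0. After removal of the length trend 5 were 2-fold higher, against 4.32% of genes, and 0 lower, against 2.85%. Their median was 0.15, which is 0.41 above that of all genes and stayed between 0.13 and 0.42 over the settings. Sprr2f, a cornified envelope protein, was at 153 FPKM in ed/ed and 21.1 in f/f (2.80), complement C3 at 13.9 in ed/ed and 1.67 in f/f (2.48) and the iron-binding Lcn2 at 9.81 in ed/ed and 2.201 in f/f (1.76). Fos, an immediate early gene, was at 9.57 FPKM in ed/ed and 4.78 in f/f (0.87). Krt19, which is also an epithelium marker, was the most abundant and among the 8 below 0, at 222 FPKM in ed/ed and 388 in f/f (-0.80). Epithelium markers had a median of 0.28, and their part in the estrogen list was not tested. The progesterone, estrogen and other lists were written with earlier results of these data known, so their direction is no independent evidence.

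Of 14 glucocorticoid receptor targets 13 were expressed, 3 were called lower (23.1%, against 6.22% of all expressed genes) and 1 higher (7.69%, against 2.68%), and the median was -0.47. With the length trend removed 2 were lower, against 2.85% of genes, and 1 was higher, against 4.32%. The 3 called lower before that removal were Sgk1 and Zbtb16, shared with the progesterone list, and Tsc22d3. Tsc22d3, the glucocorticoid-induced leucine zipper, was at 53.9 FPKM in ed/ed and 121 in f/f (-1.15). Cebpd, a transcription factor of the acute phase, stood apart at 112 FPKM in ed/ed and 12.7 in f/f (3.05). The metallothioneins Mt1 (2301 FPKM in ed/ed and 2557 in f/f, -0.15) and Mt2 (2227 in ed/ed and 2718 in f/f, -0.29) were the most abundant and close to the median of all genes. The common reference genes Actb (1154 FPKM in ed/ed and 964 in f/f, 0.26) and Gapdh (18.3 FPKM in ed/ed and 19.1 in f/f) lay above the median of all genes, whereas 7 of the 12 reference genes lay below it and their median was -0.32. The Gapdh level, far below that of Actb, is as deposited, and its cause was not tested.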

How the data were processed

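RNA-seq of whole uterus was deposited as 1 table per library with 1 value per gene. The values were taken as FPKM made by the authors, since Cufflinks 2.2.1 is named, after HISAT2 2.2.1, per the submitters' processing notes, and the header names no unit. The notes name the builds mm9 and mm10 without their role, so coordinates (GENCODE M21, GRCm38, matched by Ensembl identifier for 20557 genes) locate genes and not reads. RNA was extracted with TRIzol and libraries were made with a TruSeq RNA kit, per the labels' protocols.

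Log2 ratios of ed/ed over f/f were taken after adding 1 FPKM to each value, for genes reaching 1 FPKM in at least 1 library, a scale that understates differences of low genes, with a 2-fold rule of size in place of a test. Depth came from the regular steps between low values, each multiplied by effective length (transcript length less 250 nt, genes with 1 transcript over 1000 nt); the step was 0.0576 in ed/ed and 0.0547 in f/f. Counting intervals (95%, exact binomial for a gene, on the log scale for ratios of genes) rest on that estimate and on the longest coding transcript. The length trend was a lowess fit (fraction 0.3, statsmodels 0.14.6). Scripts in Python 3.11.15 with SciPy 1.17.1 were tested on simulated data.

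The 9 genes and the lists were chosen with earlier results of these data known. In each pathway list the genes named were the up to 4 expressed genes with the largest absolute log2 ratio and the 2 most abundant. Hand2, Esr2, Sulf2 and the markers given by name were added after their values were seen. Pseudocounts of 0.1, 5 and none, no filter and a filter at 5 FPKM, 4 scalings, a 1.5-fold rule and removal of the length trend were tried as alternatives.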

Additional observations from a re-analysis of the deposited data

How the results depend on the processing

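As deposited, 757 genes were 2-fold lower in ed/ed and 326 higher, 0 of the 9 genes were called, and their median log2 ratio was -0.57. A pseudocount of 0.1 gave 1336 lower genes and called 1 of the 9 lower (Fkbp5), and a pseudocount of 5 gave 112 higher and 207 lower. Scaling by the median ratio gave 600 higher and 387 lower with a median of the 9 genes of -0.35, by the upper quartile 506 and 466, and by the reference genes 648 and 354 with a median of -0.32. With the length trend removed, 525 were higher and 347 lower and the median was -0.17. With the median length of coding transcripts in place of the longest, chosen after seeing the data like the ratio without a pseudocount, the values were 541, 332 and -0.23. The 1.5-fold rule gave 856 higher and 2850 lower, 4 of the 9 among the lower. Scaling and length removal shift all ratios by construction; otherwise the cause was not tested. Esr1, Pgr, Nr3c1, Ncoa1, Ncoa2 and Fkbp5 were below 0 under every alternative tried that kept them, and Ncoa1 drops out at a filter of 5 FPKM. Fewer fragments follow from shorter transcripts, and with the median coding length the counting intervals of the rarest genes widen to 0.479 to 0.759 for Nr3c1 and 0.458 to 0.785 for Ncoa1. No paired analysis was possible because each genotype has 1 library, and for the same reason no replicate could be left out.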
